A study of Mus musculus with 22 samples.

Results

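Glycolysis splits glucose to pyruvate, gluconeogenesis builds glucose back from pyruvate and lactate, and the citric acid cycle burns the acetyl group that pyruvate dehydrogenase makes from pyruvate. The expression of 43 mouse genes of these 3 pathways was followed in kidneys with a ligated ureter. The genes were chosen by name: 17 of glycolysis, 4 of gluconeogenesis, 6 of the pyruvate dehydrogenase step and 16 of the cycle and its cytosolic side enzymes. Of the 43, 41 had probes named for them, 81 probes in all, and all 81 passed the filter on missing values. Gpi1 and Eno1 had none. The 41 genes were tested among 17039 genes of the array.

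All kidneys came from C57BL/6 mice. The left ureter was either tied (obstructed) or freed but left untied (sham), and kidney RNA was taken 1, 2, 5 or 9 days later, without further treatment. Each sham group held 2 replicates, and the obstructed groups held 3, 3, 3 and 4 replicates in the order of the days. Sham replicate 3 of day 1 had 2 arrays, marked L and R, which were averaged. Whether both held the same RNA is not stated. The labels give no age or sex, do not say whether each replicate was a separate mouse, and mark 3 sham arrays with R and the rest with L without saying what the letters mean. The p-values therefore measure the spread between these samples, which may in part be technical. Each array set Cy5-labelled kidney RNA against a Cy3-labelled mouse universal reference RNA, so that each value is a log2 ratio of kidney over reference after subtraction of the array's median. A level of one gene cannot be set against that of another on this scale.

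In the kidney, proximal tubule cells make glucose, chiefly from lactate and glutamine, and meet their energy need by oxidation in mitochondria, while distal segments use glycolysis. Each controlled step of glycolysis has several isoenzymes from separate genes: hexokinases phosphorylate glucose, phosphofructokinases commit it to breakdown, pyruvate kinases close the pathway and lactate dehydrogenases interconvert pyruvate and lactate. Pyruvate carboxylase, phosphoenolpyruvate carboxykinase and fructose-1,6-bisphosphatase bypass the irreversible steps in the direction of glucose. Pyruvate dehydrogenase kinases switch the pyruvate dehydrogenase complex off.

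Arrays correlated with each other at 0.806 or more over all genes, and 35747 to 39871 spots per array carried a ratio. One library stood apart in its cell markers: in obstructed replicate 21 of day 5 the mean log2 ratio of 4 skeletal muscle markers (Ckm, Acta1, Myh4 and Tnnt3) was 4.10, against -2.27 to -1.0 in the other 20 replicates. Obstructed replicate 9 of day 9 had the most spots without a ratio, 9271, and was the highest of the 4 obstructed replicates in 27 of the 31 members called lower at that day. The mean log2 ratio of 10 proximal tubule markers, the defining genes of the main kidney epithelium, was 3.91 to 5.40 in all 21 replicates. The 3 fat cell markers Adipoq, Plin1 and Cidec were also high, with means of 3.40 to 6.31 in 20 replicates and 0.67 in obstructed replicate 4 of day 2.

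The citric acid cycle fell as a whole, and the pyruvate dehydrogenase complex and most gluconeogenic genes fell with it. Glycolysis was mixed, with more members called lower than higher. On the mean of the 4 daily differences, 31 of the 41 members (75.6%) were called lower in obstructed kidneys and 4 were called higher, at an adjusted p under 0.05 (limma, Benjamini-Hochberg over the 17039 genes). Of all genes tested 52.8% were called on that mean, 25.9% lower and 26.9% higher. All 16 cycle members were lower, with a median log2 difference of -0.91 and a range from -1.50 (Mdh1) to -0.55 (Cs). The median over all genes tested was -0.01, and 11.2% of all genes lay at or below Cs, the cycle member that fell least. Of 6 members at the pyruvate dehydrogenase step 5 were lower (median -0.83). Of 4 gluconeogenic members 3 were lower and 1 was higher (median -0.66). Of 15 glycolytic members 7 were lower, 3 were higher and 5 were not called (median -0.14). The 3 higher members, Hk2, Pfkfb3 and Eno2, were no larger a share than the 26.9% of all genes called higher. Under quantile normalization the median was -0.21 in gluconeogenesis and -0.28 in glycolysis, so that the order of these 2 depended on the scaling. Of the called members Pck1 and Eno2 changed sign under it, and of those not called Pfkp, Pkm and Pklr did. The cycle median stayed between -0.98 and -0.90 under all alternatives other than leaving out a replicate. In bulk tissue, fewer cells of a type and less RNA per cell cannot be told apart.

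**Figure D1:**
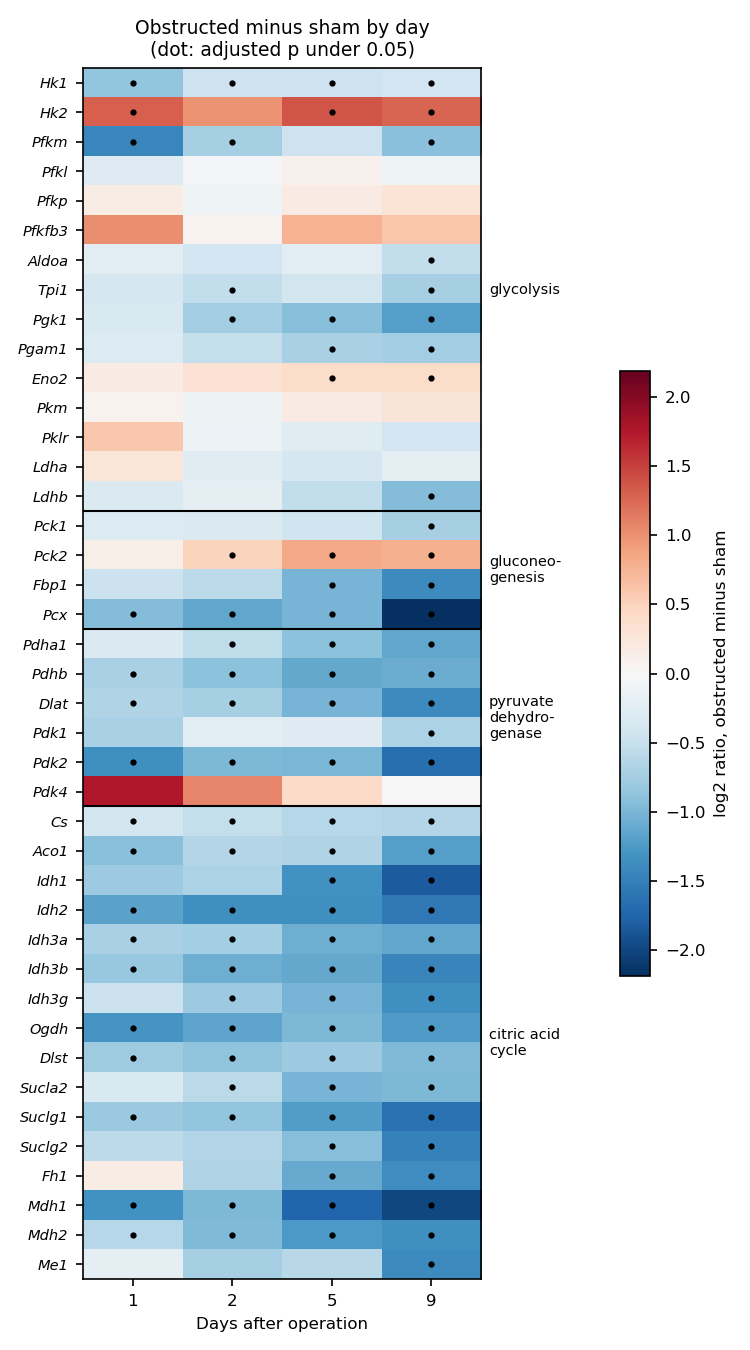
Log2 difference of obstructed minus sham kidneys for the 41 members with probes (rows, ordered by pathway and step) at each day (columns); blue is lower and red higher in obstructed kidneys, and a dot marks an adjusted p under 0.05. The citric acid cycle block is blue in all but 1 of its cells (Fh1 at day 1), and the glycolysis block holds both colours.

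The count of called members rose over the days, but day 9 had 4 obstructed replicates against 3 on each other day. In the test of any difference among the 4 days, given below, 0 members passed. At day 1, 1 member was called higher and 16 lower, against 17.3% of all genes called (7.99% higher, 9.31% lower). At day 2 the counts were 1 and 21, with 15.3% of all genes called (9.09% higher, 6.17% lower). At day 5 they were 3 and 24, with 26% of all genes called (14.9% higher, 11.1% lower), and at day 9 they were 3 and 31, with 41.3% called (20.5% higher, 20.8% lower). In the cycle alone 10, 12, 15 and 16 of 16 members were lower at days 1, 2, 5 and 9. The median difference of the cycle was -0.75, -0.77, -1.05 and -1.35, while the median of glycolysis was -0.24, -0.19, -0.27 and -0.41.

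**Figure D2:**
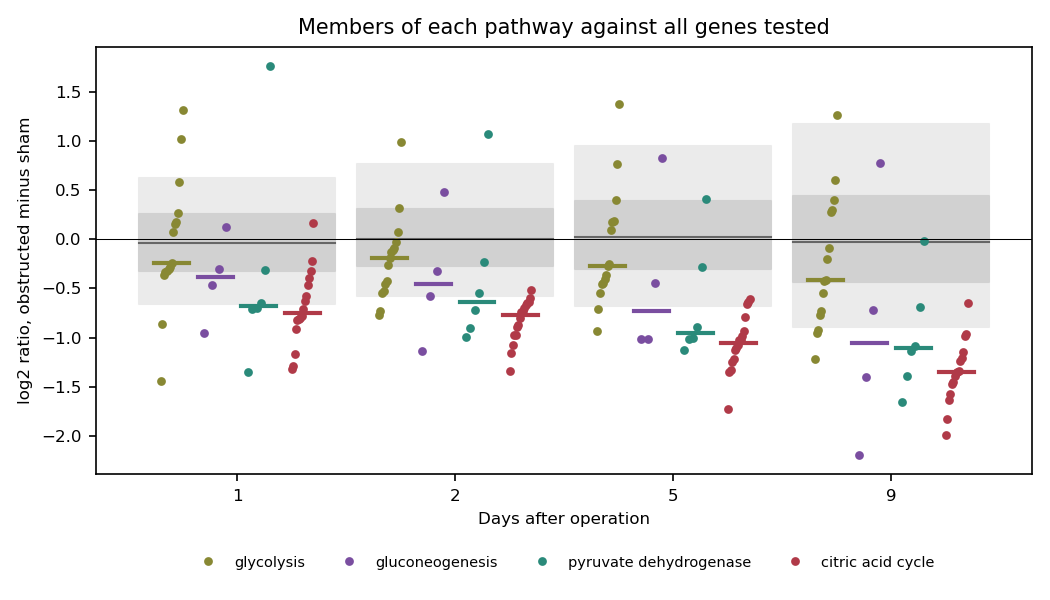
Log2 difference of obstructed minus sham for each member (points) with the median of its pathway (coloured bar) at each day after the operation; the dark grey band spans the quartiles and the light band the outer deciles of all genes tested, and the grey line is their median. The cycle members sit below 0 from day 2 on, and their median moves from -0.75 at day 1 to -1.35 at day 9.

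Separation of the single replicates gave a like picture. All obstructed replicates of a day lay below both sham replicates in 26, 29, 28 and 31 of the 41 members at days 1, 2, 5 and 9, against 23.3%, 24.1%, 24.8% and 29.5% of the genes with values for this comparison. They lay above both in 6, 3, 4 and 4 members, against 19.4%, 26.6%, 27.2% and 28.9% of genes. Every obstructed replicate lay below every sham replicate of its day on all 4 days in 22 of the 41 members, against 9.16% of the genes with values for this comparison. They were 14 cycle members, 4 of the pyruvate dehydrogenase step, 3 glycolytic members (Hk1, Tpi1 and Pgam1) and Pcx. All 4 daily calls were lower in 15 members (36.6%), against 3.3% of all genes: Hk1, Pcx, Pdhb, Dlat, Pdk2, Cs, Aco1, Idh2, Idh3a, Idh3b, Ogdh, Dlst, Suclg1, Mdh1 and Mdh2. No member was called higher on all 4 days, as 3.1% of all genes were. On these median-centred values all obstructed replicates of Hk2, Eno2 and Pck2 were above every sham replicate of their day on all 4 days, against 8.38% of genes with values.

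Calls at single days rested on few sham replicates. Without sham replicate 6, 10 members were called lower at day 1. At day 2 the count was 8 without sham replicate 8 and 13 without sham replicate 39. The 1 higher call at day 1 (Hk2) was lost without sham replicate 3 or 6 or obstructed replicate 2 or 5, and the 1 at day 2 (Pck2) without sham replicate 39 or obstructed replicate 18. Of the 3 higher calls at day 5, 1 was left without sham replicate 22, sham replicate 32 or obstructed replicate 31, and of the 3 at day 9, 1 was left without sham replicate 33. Leaving out any 1 replicate kept the count of members lower at day 9 between 27 and 31, and that on the mean of 4 days between 30 and 31. For that reason the text below leads with the mean of the 4 daily differences, given with its standard error (SE) over 8 sham and 13 obstructed replicates.

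Among the enzymes that start glycolysis, hexokinase 2 rose and hexokinase 1 fell. Hk2 gave log2 ratios of -2.89 and -2.86 in sham against -1.55, -0.70 and -2.43 in obstructed kidneys at day 1, and -2.81 and -3.30 against -2.45, -1.69 and -2.07 at day 2. Hk2 was then at -2.72 and -2.62 in sham against -1.83, -1.28 and -0.77 at day 5, and at -2.45 and -2.64 against -1.13, -1.52, -1.27 and -1.20 at day 9. Every obstructed replicate was above both sham replicates of its day. Over the 4 days Hk2, the isoenzyme of muscle and fat that insulin and hypoxia induce, was 2.36-fold higher (1.24 ± 0.19, adjusted p = 5.22e-05), and it was called at days 1, 5 and 9. Hk1 gave log2 ratios of 0.07 and 0.11 in sham against -1.01, -0.64 and -0.66 in obstructed kidneys at day 1, and -0.10 and 0.08 against -0.63, -0.51 and -0.27 at day 2. Hk1 was then at 0.01 and -0.13 in sham against -0.40, -0.67 and -0.48 at day 5, and at -0.08 and -0.41 against -0.62, -0.73, -0.74 and -0.57 at day 9. Hk1, the broadly expressed hexokinase, was below sham on each day without overlap (-0.55 ± 0.07, adjusted p = 1.19e-05). Of its 6 probes 5 were called lower and the sixth was not (0.17); of all probes tested singly 47.6% were called. At day 9 the call of Hk2 was lost without sham replicate 33 (1.17, adjusted p = 0.0887), and that of Hk1 without sham replicate 10 (-0.25, adjusted p = 0.283), obstructed replicate 34 (-0.39, adjusted p = 0.052) or obstructed replicate 35 (-0.39, adjusted p = 0.0551).

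Of the phosphofructokinases the muscle isoenzyme fell, and the platelet and liver isoenzymes were not called after median centring. Pfkm gave log2 ratios of -0.04 and 0.02 in sham against -1.59, -1.44 and -1.30 in obstructed kidneys at day 1, and -0.21 and -0.15 against -1.04, -0.94 and -0.76 at day 2. Pfkm was then at -0.41 and -0.33 in sham against -1.01, -0.32 and -1.13 at day 5, and at -0.26 and -0.24 against -1.22, -1.17, -1.06 and -1.23 at day 9. The largest gap was at day 1, and at day 5 the groups came within a log2 difference of -0.45 ± 0.18 that was not called (adjusted p = 0.0778). At that day the highest obstructed value of Pfkm, the muscle isoenzyme, was that of replicate 21, the library with the muscle markers, and without it the difference was -0.69 ± 0.12 (adjusted p = 0.000948). The part of muscle RNA in that value was not tested. Over 4 days Pfkm was 1.84-fold lower (-0.88 ± 0.09, adjusted p = 6.98e-07). Pfkp gave log2 ratios of -1.18 and -1.04 in sham against -1.11, -0.68 and -1.06 in obstructed kidneys at day 1, and -1.17 and -1.11 against -1.31, -1.20 and -1.19 at day 2. Pfkp was then at -0.76 and -1.49 in sham against -0.99, -1.03 and -0.82 at day 5, and at -0.96 and -1.36 against -1.0, -0.77, -0.85 and -0.82 at day 9. Pfkp, the platelet isoenzyme, was not called (0.13 ± 0.09, adjusted p = 0.236), and its 3 probes disagreed: one was called lower (-0.42), one higher (0.71) and one was not called. It was called higher without sham replicate 22 (0.22, adjusted p = 0.0251) and on arrays of the larger image folder alone (0.27, adjusted p = 0.0347), and under quantile normalization its value was -0.07 (adjusted p = 0.512). Pfkl, the liver isoenzyme, was not called either (-0.07 ± 0.07, adjusted p = 0.39), although it passed as lower under quantile normalization (-0.33, adjusted p = 0.00296).

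Pfkfb3 makes fructose-2,6-bisphosphate, the strongest activator of phosphofructokinase. Pfkfb3 gave log2 ratios of 0.24 and -0.08 in sham against 1.41, 1.54 and 0.35 in obstructed kidneys at day 1, and -0.41 and 0.28 against -0.02, 0.53 and -0.47 at day 2. Pfkfb3 was then at -0.17 and 0.39 in sham against 0.60, 0.90 and 1.15 at day 5, and at 0.33 and -0.06 against 0.44, 1.01, 0.66 and 0.83 at day 9. Obstructed replicates were above both sham replicates on 3 of the 4 days. The mean of 4 days was called higher (0.62 ± 0.18, adjusted p = 0.00755), while no single day was. On arrays of one image folder alone it was not called (0.58, adjusted p = 0.0624).

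**Figure D3:**
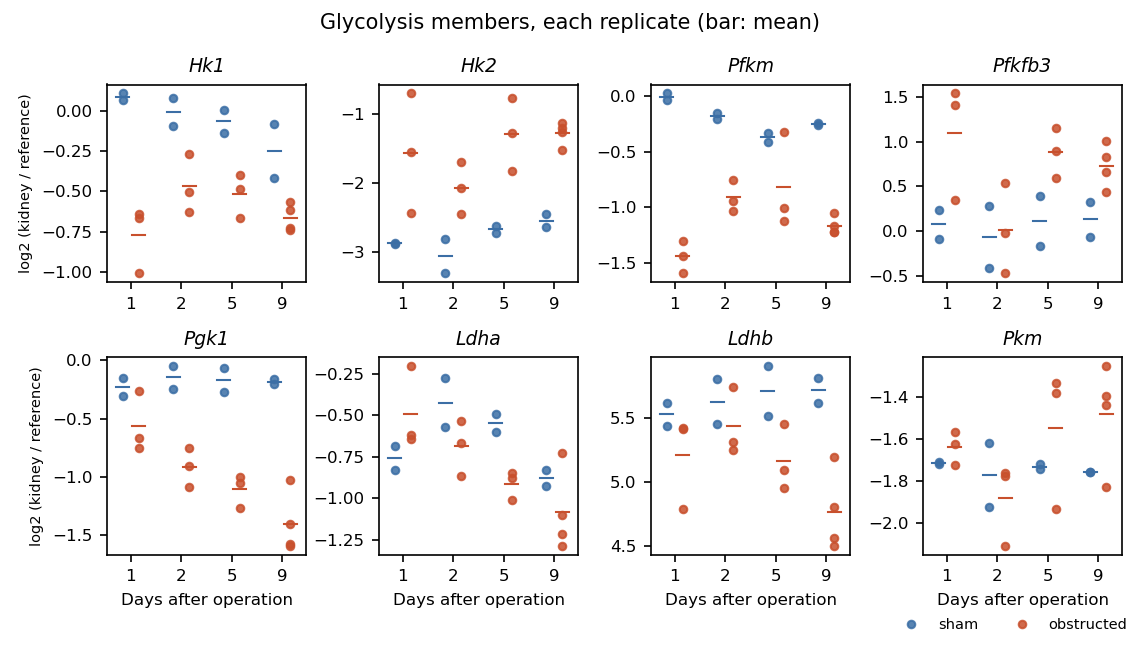
Log2 ratio of kidney over reference in each replicate (points) with the group mean (bar) for 8 glycolytic members at each day, sham in blue and obstructed in orange. Hk2 is higher and Hk1 lower in obstructed kidneys on every day without overlap, and Pgk1 drops from day 2 on.

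Below phosphofructokinase most enzymes fell. Pgk1 gave log2 ratios of -0.31 and -0.15 in sham against -0.26, -0.67 and -0.75 in obstructed kidneys at day 1, and -0.05 and -0.24 against -1.09, -0.91 and -0.75 at day 2. Pgk1 was then at -0.27 and -0.07 in sham against -1.05, -1.26 and -1.0 at day 5, and at -0.17 and -0.21 against -1.03, -1.59, -1.58 and -1.40 at day 9. Phosphoglycerate kinase, which makes the first ATP of the pathway, overlapped with sham at day 1 and was below it afterwards (-0.81 ± 0.09, adjusted p = 1.67e-06). Its 11 probes were all called lower, with log2 differences from -0.88 to -0.76. Phosphoglycerate mutase Pgam1 (-0.58 ± 0.09), triosephosphate isomerase Tpi1 (-0.51 ± 0.08) and aldolase Aldoa (-0.37 ± 0.08) also fell. Eno2, the neuronal enolase, was called higher by 0.32 ± 0.06 (adjusted p = 0.000213), but under quantile normalization its log2 difference was -0.24, called lower (adjusted p = 0.0113), so that its direction depended on the scaling. Leaving out sham replicate 10 or 33 ended the Eno2 call at day 9 (0.39, adjusted p = 0.053, and 0.41, adjusted p = 0.0535), and leaving out sham replicate 33 ended that of Aldoa (-0.52, adjusted p = 0.0687).

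At the end of the pathway neither pyruvate kinase nor Ldha was called after median centring. Pkm gave log2 ratios of -1.71 and -1.72 in sham against -1.57, -1.63 and -1.73 in obstructed kidneys at day 1, and -1.93 and -1.62 against -2.11, -1.78 and -1.76 at day 2. Pkm was then at -1.74 and -1.72 in sham against -1.33, -1.94 and -1.38 at day 5, and at -1.76 and -1.76 against -1.83, -1.40, -1.44 and -1.25 at day 9. Pkm, the pyruvate kinase gene of most tissues, overlapped with sham on all 4 days (0.11 ± 0.09, adjusted p = 0.353), with none of 3 probes called. Under quantile normalization the value of Pkm was -0.21 (adjusted p = 0.104). Pklr gave log2 ratios of 2.70 and 1.87 in sham against 2.76, 2.46 and 3.39 in obstructed kidneys at day 1, and 1.93 and 2.0 against 2.08, 1.58 and 1.85 at day 2. Pklr was then at 2.11 and 2.74 in sham against 1.63, 1.94 and 2.90 at day 5, and at 1.98 and 2.13 against 1.89, 2.20, 1.11 and 1.33 at day 9. Pklr, the pyruvate kinase of liver, kidney and red cells, had a wide spread (-0.06 ± 0.19, adjusted p = 0.817). Ldha gave log2 ratios of -0.83 and -0.69 in sham against -0.20, -0.62 and -0.64 in obstructed kidneys at day 1, and -0.28 and -0.57 against -0.86, -0.54 and -0.67 at day 2. Ldha was then at -0.60 and -0.49 in sham against -0.85, -1.01 and -0.88 at day 5, and at -0.93 and -0.83 against -0.73, -1.29, -1.22 and -1.10 at day 9. Ldha, the lactate dehydrogenase subunit of glycolytic tissue, was above sham in every replicate at day 1 and below it in every replicate at day 5, and was not called (-0.14 ± 0.08, adjusted p = 0.176), but under quantile normalization it was called lower (-0.28, adjusted p = 0.0163).

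Ldhb gave log2 ratios of 5.44 and 5.62 in sham against 4.79, 5.42 and 5.42 in obstructed kidneys at day 1, and 5.45 and 5.80 against 5.74, 5.25 and 5.31 at day 2. Ldhb was then at 5.91 and 5.51 in sham against 5.45, 5.09 and 4.95 at day 5, and at 5.62 and 5.81 against 5.20, 4.56, 4.50 and 4.81 at day 9. Ldhb, the subunit of oxidative tissue, fell (-0.50 ± 0.12, adjusted p = 0.00261), with a single-day call at day 9 alone (-0.95 ± 0.23, adjusted p = 0.00415). That day's call was lost without sham replicate 33 (-0.85, adjusted p = 0.0554), and that of the mean under quantile normalization (-0.26, adjusted p = 0.0872).

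Many glycolytic genes are known targets of the hypoxia-inducible factors, which bind a core of ACGTG or GCGTG. The 250 bases before the first listed start that holds ACGTG are shown for 4 glycolytic genes, because they share that core (in capitals, on either strand) while the genes moved differently: Hk2 and Pfkfb3 were called higher, Pgk1 lower, and Ldha was not called after median centring. The sequences are from RefSeq, build GRCm38.p6, written 5′ to 3′ along the gene's strand; Hk2 lies at chr6:82774455-82774704 (minus strand), Pfkfb3 at chr2:11553930-11554179 (minus strand), Pgk1 at chrX:106186850-106187099 (plus strand) and Ldha at chr7:46845554-46845803 (plus strand).
Hk2: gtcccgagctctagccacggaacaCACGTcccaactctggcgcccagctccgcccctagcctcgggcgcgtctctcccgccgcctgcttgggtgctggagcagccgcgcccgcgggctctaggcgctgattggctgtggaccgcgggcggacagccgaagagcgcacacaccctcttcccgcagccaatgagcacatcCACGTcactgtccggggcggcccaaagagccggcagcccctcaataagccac
Pfkfb3: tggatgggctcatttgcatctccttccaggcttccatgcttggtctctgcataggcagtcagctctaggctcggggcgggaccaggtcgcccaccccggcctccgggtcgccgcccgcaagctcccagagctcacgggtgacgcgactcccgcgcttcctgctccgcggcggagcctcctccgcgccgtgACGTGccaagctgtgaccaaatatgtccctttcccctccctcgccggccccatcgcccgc
Pgk1: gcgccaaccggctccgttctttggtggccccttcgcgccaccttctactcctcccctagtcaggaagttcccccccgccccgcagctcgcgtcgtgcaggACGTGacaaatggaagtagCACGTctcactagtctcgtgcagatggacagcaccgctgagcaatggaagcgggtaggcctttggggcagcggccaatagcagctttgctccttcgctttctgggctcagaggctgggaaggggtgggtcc
Ldha: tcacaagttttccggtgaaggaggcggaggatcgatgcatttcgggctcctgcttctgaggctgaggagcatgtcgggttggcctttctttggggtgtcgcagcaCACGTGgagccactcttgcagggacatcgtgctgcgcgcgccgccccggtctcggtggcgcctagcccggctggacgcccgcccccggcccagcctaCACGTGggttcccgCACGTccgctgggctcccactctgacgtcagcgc
In capitals, counting each strand's match, there are 2 sites for Hk2, 1 for Pfkfb3, 2 for Pgk1 and 5 for Ldha; where the core matches on both strands at a palindrome the 2 matches overlap. Promoters were listed for 42 of the 43 members (not Idh3a). Over all listed starts, ACGTG or GCGTG on either strand occurred in 29 of the 42 (69%), against 41.5% of 27025 genes. With the first listed start of each gene alone the shares were 57.1% and 38.6%. By pathway, over all listed starts, the core occurred in 13 of 17 glycolytic members, 2 of 4 gluconeogenic members, 5 of 6 of the pyruvate dehydrogenase step and 9 of 15 of the cycle. With the first listed start alone it occurred in 10 of 17, 2 of 4, 5 of 6 and 7 of 15. The element AAGGTCA of the estrogen-related receptors occurred in 1 of 42 members (2.38%), against 4.7% of all genes. These matches describe letters in the window and are not evidence of binding.

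Of the 4 gluconeogenic members, those of the mitochondrial entry and the fructose-1,6-bisphosphatase step fell furthest. Pcx gave log2 ratios of 4.26 and 4.03 in sham against 3.53, 2.87 and 3.17 in obstructed kidneys at day 1, and 3.77 and 3.80 against 2.62, 2.65 and 2.70 at day 2. Pcx was then at 3.12 and 3.69 in sham against 2.33, 2.29 and 2.55 at day 5, and at 3.61 and 3.83 against 2.13, 1.41, 1.21 and 1.38 at day 9. Pyruvate carboxylase, which turns pyruvate into oxaloacetate, was below sham in every replicate on every day, and over 4 days it was 2.50-fold lower (-1.32 ± 0.12, adjusted p = 2.47e-07). At day 9 it was 4.56-fold lower, the largest drop of the 41 members at that day. Fbp1 gave log2 ratios of 7.99 and 7.96 in sham against 7.99, 7.26 and 7.28 in obstructed kidneys at day 1, and 8.12 and 7.98 against 7.54, 7.36 and 7.51 at day 2. Fbp1 was then at 7.94 and 8.32 in sham against 7.28, 6.78 and 7.30 at day 5, and at 8.09 and 8.03 against 7.15, 6.50, 6.42 and 6.58 at day 9. Fructose-1,6-bisphosphatase 1 overlapped with sham at day 1 and was below it from day 2 on (-0.86 ± 0.12, adjusted p = 1.72e-05), and was called at days 5 and 9.

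Of the phosphoenolpyruvate carboxykinases the mitochondrial one rose, and the cytosolic one was called lower after median centring but changed sign, uncalled, under quantile normalization. Pck1 gave log2 ratios of 9.96 and 9.04 in sham against 9.60, 8.92 and 9.07 in obstructed kidneys at day 1, and 9.06 and 9.57 against 9.45, 8.71 and 8.82 at day 2. Pck1 was then at 9.47 and 9.01 in sham against 8.85, 8.49 and 9.06 at day 5, and at 9.10 and 9.28 against 8.49, 8.64, 8.25 and 8.49 at day 9. The groups of Pck1, the cytosolic enzyme, overlapped at days 1, 2 and 5. It was called lower over 4 days (-0.45 ± 0.15, adjusted p = 0.0168), but the call was lost without sham replicate 3 (-0.33, adjusted p = 0.0573) or sham replicate 39 (-0.38, adjusted p = 0.0502), and under quantile normalization the value was 0.05 (adjusted p = 0.755). Pck2 gave log2 ratios of -1.94 and -2.02 in sham against -1.78, -1.88 and -1.90 in obstructed kidneys at day 1, and -1.57 and -1.99 against -1.31, -1.23 and -1.34 at day 2. Pck2 was then at -2.10 and -1.88 in sham against -1.11, -1.19 and -1.20 at day 5, and at -2.04 and -1.98 against -1.48, -1.20, -1.11 and -1.16 at day 9. Pck2, the mitochondrial enzyme and a known target of the amino acid stress response, was above sham in every replicate on every day and was called higher (0.55 ± 0.06, adjusted p = 3.53e-06) and at days 2, 5 and 9.

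**Figure D4:**
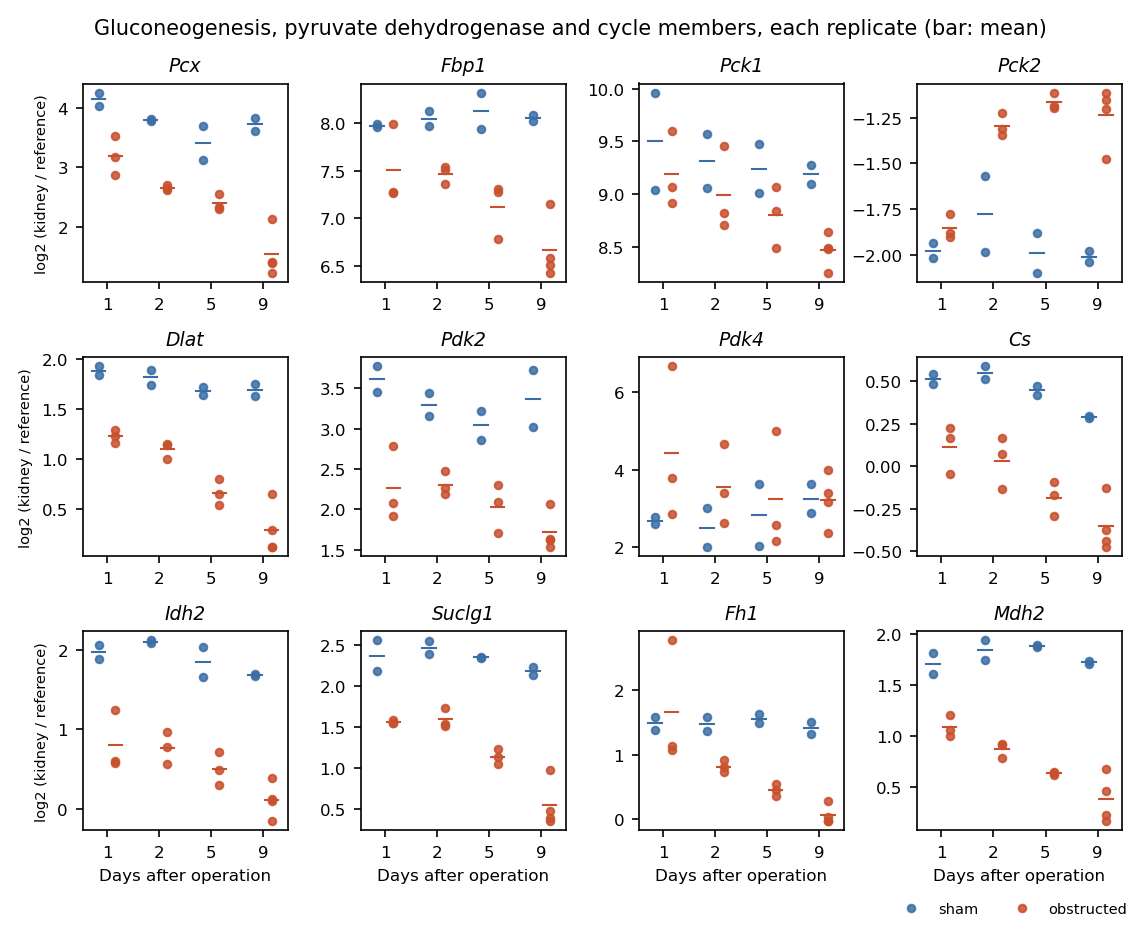
Log2 ratio of kidney over reference in each replicate (points) with the group mean (bar) for 12 members of gluconeogenesis, the pyruvate dehydrogenase step and the citric acid cycle at each day, sham in blue and obstructed in orange. Pck2 is the only panel in which all obstructed replicates lie above sham on each day; Pdk4 and Fh1 each have 1 far value at day 1.

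All 3 measured subunits of the pyruvate dehydrogenase complex fell. Pdha1 gave log2 ratios of 0.98 and 1.01 in sham against 0.85, 0.62 and 0.60 in obstructed kidneys at day 1, and 1.04 and 1.0 against 0.24, 0.61 and 0.56 at day 2. Pdha1 was then at 0.89 and 0.84 in sham against -0.0033, -0.04 and -0.03 at day 5, and at 0.82 and 0.80 against 0.02, -0.56, -0.47 and -0.29 at day 9. Pdhb gave log2 ratios of 0.98 and 1.12 in sham against 0.44, 0.28 and 0.33 in obstructed kidneys at day 1, and 1.24 and 1.15 against 0.15, 0.30 and 0.44 at day 2. The subunits Pdha1 (-0.72 ± 0.07, adjusted p = 1.03e-06) and Pdhb (-0.95 ± 0.07, adjusted p = 6.33e-08) of its first enzyme were below sham in every replicate on every day. Pdhb was then at 1.19 and 1.12 in sham against 0.02, 0.27 and -0.18 at day 5, and at 0.64 and 1.01 against -0.03, -0.41, -0.32 and -0.28 at day 9. Dlat gave log2 ratios of 1.92 and 1.84 in sham against 1.29, 1.24 and 1.17 in obstructed kidneys at day 1, and 1.89 and 1.74 against 1.0, 1.14 and 1.15 at day 2. Dlat was then at 1.72 and 1.64 in sham against 0.65, 0.80 and 0.54 at day 5, and at 1.75 and 1.63 against 0.65, 0.12, 0.12 and 0.29 at day 9. Dlat, its acetyltransferase core, showed the same separation (-0.94 ± 0.07, adjusted p = 3.27e-08).

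Of the member kinases that shut the complex off, Pdk2 and Pdk1 fell, and Pdk4 was not called. Pdk2 gave log2 ratios of 3.77 and 3.45 in sham against 2.79, 1.92 and 2.08 in obstructed kidneys at day 1, and 3.44 and 3.16 against 2.47, 2.19 and 2.26 at day 2. Pdk2 was then at 2.87 and 3.21 in sham against 2.31, 1.71 and 2.09 at day 5, and at 3.02 and 3.72 against 2.06, 1.62, 1.64 and 1.53 at day 9. Pdk2 was 2.38-fold lower (-1.25 ± 0.13, adjusted p = 1.31e-06) and without overlap on each day. Pdk1 gave log2 ratios of -0.83 and -1.05 in sham against -1.20, -1.98 and -1.77 in obstructed kidneys at day 1, and -1.48 and -0.92 against -1.50, -1.50 and -1.29 at day 2. Pdk1 was then at -1.31 and -1.26 in sham against -1.75, -1.54 and -1.39 at day 5, and at -1.27 and -1.07 against -2.37, -1.69, -1.68 and -1.70 at day 9. Pdk1, the kinase that hypoxia induces, was also lower (-0.48 ± 0.12, adjusted p = 0.00326) and was called at day 9 alone (-0.69 ± 0.23, adjusted p = 0.0246). That call was lost without sham replicate 10 (-0.79, adjusted p = 0.0577), sham replicate 33 (-0.59, adjusted p = 0.17) or obstructed replicate 9 (-0.52, adjusted p = 0.0536).

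Pdk4 gave log2 ratios of 2.76 and 2.59 in sham against 6.67, 3.78 and 2.86 in obstructed kidneys at day 1, and 1.99 and 3.0 against 4.65, 3.40 and 2.62 at day 2. Pdk4 was then at 2.03 and 3.63 in sham against 2.57, 2.17 and 5.00 at day 5, and at 2.87 and 3.61 against 2.36, 3.17, 3.98 and 3.39 at day 9. Pdk4, the kinase that fasting and fatty acids induce, was the most variable member: obstructed replicates ran from 2.17 to 6.67, and sham replicates from 1.99 to 3.63. It was not called (0.81 ± 0.49, adjusted p = 0.184), and its highest value was that of obstructed replicate 2 of day 1.

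In the citric acid cycle the first steps fell together. Cs gave log2 ratios of 0.54 and 0.48 in sham against -0.04, 0.16 and 0.23 in obstructed kidneys at day 1, and 0.59 and 0.51 against -0.13, 0.07 and 0.16 at day 2. Cs was then at 0.42 and 0.48 in sham against -0.17, -0.09 and -0.29 at day 5, and at 0.29 and 0.29 against -0.13, -0.48, -0.44 and -0.38 at day 9. Citrate synthase, which joins acetyl-CoA to oxaloacetate, fell least of the cycle members, and without overlap on any day (-0.55 ± 0.06, adjusted p = 2.24e-06). Idh2 gave log2 ratios of 1.88 and 2.06 in sham against 1.24, 0.59 and 0.57 in obstructed kidneys at day 1, and 2.09 and 2.12 against 0.56, 0.77 and 0.97 at day 2. Idh2 was then at 2.03 and 1.66 in sham against 0.48, 0.71 and 0.30 at day 5, and at 1.67 and 1.70 against 0.39, -0.16, 0.09 and 0.12 at day 9. The mitochondrial NADP-dependent isocitrate dehydrogenase Idh2 was 2.56-fold lower (-1.35 ± 0.10, adjusted p = 4.56e-08), and was separated from sham on all 4 days. Idh3b gave log2 ratios of 1.0 and 1.30 in sham against 0.40, 0.36 and 0.22 in obstructed kidneys at day 1, and 1.37 and 1.32 against 0.11, 0.35 and 0.36 at day 2. Idh3b was then at 1.13 and 1.19 in sham against 0.08, 0.20 and -0.17 at day 5, and at 0.97 and 0.99 against -0.09, -0.68, -0.57 and -0.52 at day 9. Idh3b, a subunit of the NAD-dependent enzyme of the cycle, was likewise separated and fell (-1.12 ± 0.08, adjusted p = 2.58e-08). The other subunits of that enzyme, Idh3a (-0.92 ± 0.11) and Idh3g (-0.91 ± 0.09), had similar differences.

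Later steps of the cycle fell too. Suclg1 gave log2 ratios of 2.19 and 2.56 in sham against 1.54, 1.54 and 1.59 in obstructed kidneys at day 1, and 2.55 and 2.39 against 1.54, 1.52 and 1.74 at day 2. Suclg1 was then at 2.35 and 2.35 in sham against 1.14, 1.23 and 1.04 at day 5, and at 2.14 and 2.23 against 0.98, 0.39, 0.35 and 0.48 at day 9. The alpha subunit of succinyl-CoA ligase was below sham in every replicate (-1.13 ± 0.08, adjusted p = 2.47e-08). Mdh2 gave log2 ratios of 1.82 and 1.61 in sham against 1.05, 1.0 and 1.21 in obstructed kidneys at day 1, and 1.74 and 1.94 against 0.78, 0.92 and 0.91 at day 2. Mdh2 was then at 1.87 and 1.89 in sham against 0.64, 0.62 and 0.65 at day 5, and at 1.74 and 1.71 against 0.68, 0.22, 0.16 and 0.46 at day 9. Mitochondrial malate dehydrogenase had the lowest p of the cycle members (-1.05 ± 0.07, adjusted p = 1.13e-08), again without overlap. Of the oxoglutarate dehydrogenase complex, Ogdh (-1.17 ± 0.12) and Dlst (-0.85 ± 0.07) fell. The beta subunits of succinyl-CoA ligase were lower as well, with log2 differences of -0.73 ± 0.09 for Sucla2 and -0.91 ± 0.11 for Suclg2, and 1 of the 3 Sucla2 probes was not called (-0.16).

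Fumarase, Fh1, was lower over the 4 days (-0.74 ± 0.17, adjusted p = 0.00168), with calls at days 5 and 9. Fh1 gave log2 ratios of 1.39 and 1.59 in sham against 2.78, 1.07 and 1.13 in obstructed kidneys at day 1, and 1.38 and 1.59 against 0.80, 0.73 and 0.92 at day 2. At day 1 obstructed replicate 2 lay above sham while the others lay below. Fh1 was then at 1.49 and 1.63 in sham against 0.45, 0.55 and 0.35 at day 5, and at 1.33 and 1.51 against 0.28, -0.03, -0.03 and 0.03 at day 9. The 4 cytosolic enzymes counted with the cycle also fell. Their log2 differences were -1.50 ± 0.12 for the malate dehydrogenase Mdh1, -1.16 ± 0.15 for the isocitrate dehydrogenase Idh1, -0.86 ± 0.09 for the aconitase and iron regulatory protein Aco1 and -0.74 ± 0.17 for malic enzyme Me1. Without these 4 the cycle median was -0.91 over 12 genes, all called lower.

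Whether the effect changed over time was tested by setting the day 9 difference against the day 1 difference. The difference became lower in 8 members (19.5%) and higher in 1, with 11.6% of all genes called in this comparison (7.2% higher, 4.43% lower). The 8 were Fh1 (-1.53 ± 0.47), Pcx (-1.23 ± 0.33), Idh3g (-0.88 ± 0.24), Pgk1 (-0.88 ± 0.24), Pdha1 (-0.82 ± 0.21), Suclg1 (-0.82 ± 0.22), Dlat (-0.74 ± 0.19) and Mdh2 (-0.72 ± 0.19). Pck2 became higher by 0.65 ± 0.18. The 8 members fell to 0 without sham replicate 33, to 1 without sham replicate 6 and to 2 without sham replicate 3, were 4 without sham replicate 10, obstructed replicate 34 or obstructed replicate 35, were 5 without obstructed replicate 2, and rose to 14 without obstructed replicate 9. The call of Pck2 was lost without sham replicate 3, 6, 10 or 33, or without obstructed replicate 5, 34, 35 or 36. Without obstructed replicate 2 the value of Fh1 was -0.97 (adjusted p = 0.00568). In the test of any difference among the 4 days, 0 members passed (limma's moderated F test, lowest adjusted p = 0.0733), against 4.85% of all genes; 13 members had an unadjusted p under 0.05.

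Differences between isoenzymes within one array do not depend on the centring of that array. The log2 ratio of Hk2 minus that of Hk1 was -3.38 to -2.23 in sham and -1.82 to -0.06 in obstructed replicates, higher in every obstructed replicate on each day. By itself Hk2 lay above sham and Hk1 below it on all 4 days, so this separation follows from those values. The mean gap to sham was 2.17, 1.45, 1.83 and 1.68 at days 1, 2, 5 and 9. Pfkp minus Pfkm was above sham in every replicate at days 1, 2 and 9, by 1.59, 0.64 and 1.21, and overlapped at day 5. Ldha minus Ldhb was above sham without overlap at day 1 (by 0.59) and day 9 (by 0.75) alone. Pkm minus Pklr was so at day 9 alone (by 0.70), where the lowest obstructed value was -3.716 and the highest sham value -3.742. Pdk1 minus Pdk4 was below sham in every replicate at days 1, 2 and 9, with mean gaps of -2.47, -1.30 and -0.67. At day 2 its highest obstructed value was -3.912 and its lowest sham value -3.911, so that the groups all but touched. At day 9 these values were -4.73 and -4.69. These gaps have no test of their own, and the share of other gene pairs that separate was not worked out.

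**Figure D5:**
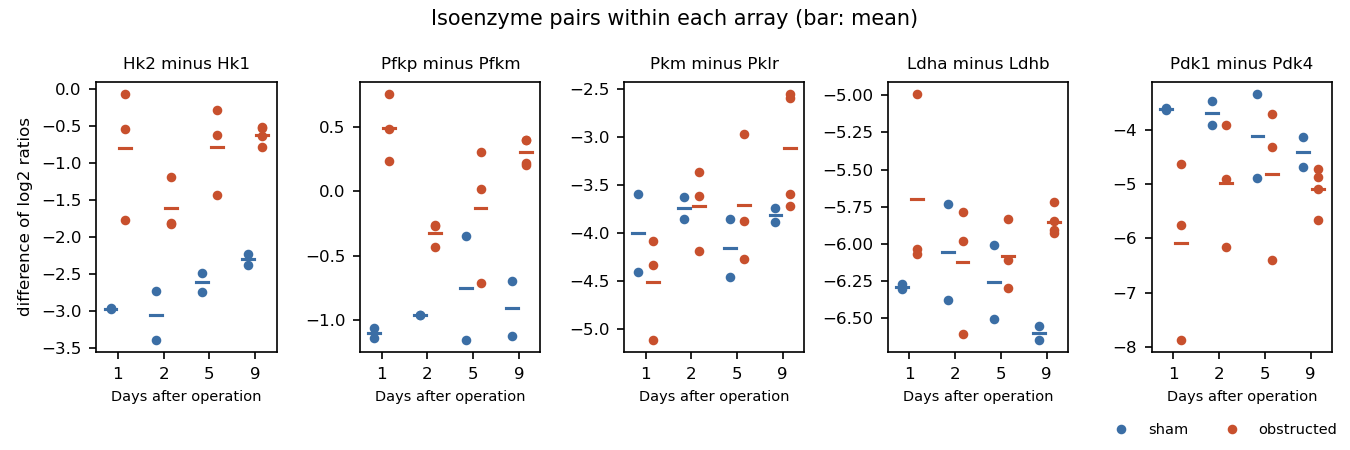
Within-array difference of the log2 ratios of 5 pairs of isoenzymes (panels) in each replicate (points) with the group mean (bar), at each day, sham in blue and obstructed in orange. Hk2 minus Hk1 is higher in obstructed than in sham replicates on all 4 days; Pkm minus Pklr overlaps at days 1, 2 and 5.

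Other genes of the pathways, listed by their place in the pathway, moved as follows. Of 14 further glycolytic genes with probes, 3 were called higher and 6 lower on the mean of 4 days, when 26.9% of all genes were called higher and 25.9% lower. They included Pgam2, the muscle phosphoglycerate mutase (-2.02), the phosphoglucomutases Pgm2 (0.97) and Pgm1 (-0.54), and Pfkfb4 (0.39); Gapdh was not called (-0.22). All 4 further gluconeogenic genes were lower: the glucose-6-phosphate transporter Slc37a4 (-1.66), the catalytic subunit G6pc (-0.98), Fbp2 (-0.53) and G6pc3 (-0.17). Of 13 further genes of the pyruvate dehydrogenase step and cycle with probes, 10 were lower and 0 higher, among them the succinate dehydrogenase subunits Sdhb (-1.36) and Sdhd (-1.04), the shared dehydrogenase subunit Dld (-0.98) and the pyruvate carrier Mpc1 (-1.28).

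Markers of kidney cell types moved in the same samples. On the mean of 4 days 8 of 10 proximal tubule markers were called lower and 0 higher, and their mean log2 ratio was 5.0 to 5.4 in sham and 3.91 to 4.73 in obstructed replicates. Among the 4 obstructed replicates of day 9 that mean was highest in replicate 9 (4.50). Lower calls were also made for 3 of 5 thick ascending limb markers and 5 of 6 collecting duct markers. All 8 macrophage markers measured were called higher (means of -2.90 to -1.95 in sham and -1.67 to 0.95 in obstructed replicates), as were all 6 fibroblast markers and all 3 neutrophil markers measured. Of the other lists, 1 of 4 T cell, 2 of 5 urothelium and 1 of 4 skeletal muscle markers were higher, 2 of 4 endothelial markers were lower, and no red cell or fat cell marker was called, of 2 and 3. Of all genes 26.9% were called higher and 25.9% lower on that mean, so that 1 of 4 is near the background. The part of these shifts in the differences of the 41 members was not tested.

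The arrays' images came from 2 folders, and 4 of the 22 arrays lay in the smaller one. Day 5 was the only day at which both operations lay in both folders. The smaller folder held 1 sham and 2 obstructed replicates of that day, and the larger 1 and 1. All 27 members called at day 5 had the same sign within each folder. They were called from these same replicates, so their agreement cannot show whether the folder had an effect. Of the members not called, Pfkp (-0.25 in the smaller and 0.67 in the larger folder), Pklr (-0.33 and 0.16) and Pck1 (-0.80 and 0.05) differed in sign. The others did not.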

How the data were processed

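Kidney RNA (Cy5) and reference RNA (Cy3) were hybridised together on 22 arrays of 8 groups. The authors deposited 1 log ratio per spot. The base was not given in the sources used here, and the deposited values were taken as log10 of kidney over reference from their range (-3.11 to 4), then multiplied by 3.322 to give log2; a log2 reading would scale every difference down by that factor and leave the tests as they are. Which background correction and normalization came before deposit was not given in the sources used here; the direction of the ratio was read from the dyes per the labels. Array medians of the deposited values before centring were -0.163 to 0.00477.

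Values of exactly 0 (5147 to 9271 per array) were treated as missing, each array's median was subtracted, and probes naming 1 gene (33653; 56 named several and 11511 none) were averaged per gene, with 33517 symbols looked up by Entrez ID in RefSeq GRCm38.p6. Genes needed a value on 18 of 22 arrays and in 1 replicate of each group. One limma fit (3.58.1, R 4.3.3) of 8 group means over 21 replicates with eBayes gave every difference, with Benjamini-Hochberg adjustment over 17039 genes at 0.05. The 2 arrays of sham replicate 3 correlated at 0.956 with each other, and at 0.94 and 0.953 with the array of sham replicate 6. On simulated data with 200 genes changed by 1 on the log2 scale among 17039, the fit recovered 57% at day 1, 59% at day 9 and 91.5% on the mean of 4 days. False calls were 6, 7 and 9. A far larger share of genes was called in the data (17.3% at day 1 and 52.8% on the mean), so these recovery rates may not hold there. The number of arrays limits the precision. Members and lists were chosen with earlier results of these data known. All 43 members could be named; values of every replicate are given for the 3 members of lowest p in each group and for 18 preset isoenzymes and key enzymes; Fh1 was added after its values were seen. Of other listed genes, the 4 of lowest p per list and preset genes are named; some preset items are not reported here. Alternatives were other scalings, filters, weights, array subsets, single-day fits, thresholds and leaving out each replicate.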

Additional observations from a re-analysis of the deposited data

Results flagged for a closer look

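In the 4 obstructed replicates of day 9, replicate 9 lay apart from the other 3 in 4 members. The log2 ratio of Pdk1 was -2.37 there, and the nearest other replicate was at -1.70. For Aco1 it was 1.75 against a nearest value of 1.11, for Idh3g 0.93 against 0.35, and for Mdh1 2.32 against 1.5. These 4 came from 41 members examined at that day (Dixon's test), of which chance gives about 1 in 20; the groups share their arrays, so these are not separate events. In Aco1, Idh3g and Mdh1, replicate 9 lay nearer to sham than the others, and in Pdk1 further from it.

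The difference of obstructed minus sham was not the same at day 9 as at day 1 in 9 members, by limma's contrast of the 2 differences. The log2 values were -0.88 for Pgk1 (adjusted p = 0.0299), 0.65 for Pck2 (adjusted p = 0.0292), -1.23 for Pcx (adjusted p = 0.0261), -0.82 for Pdha1 (adjusted p = 0.0192) and -0.74 for Dlat (adjusted p = 0.0223). In the cycle they were -0.88 for Idh3g (adjusted p = 0.0292), -0.82 for Suclg1 (adjusted p = 0.0276), -1.53 for Fh1 (adjusted p = 0.0479) and -0.72 for Mdh2 (adjusted p = 0.0218). Of these 9 calls 0 held under every alternative tried.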

How the results depend on the processing

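No paired analysis was possible because no 2 groups share a replicate number. On the mean of 4 days 24 of 35 called members, and at day 9 26 of 34, kept direction and call under every alternative tried; at days 1, 2 and 5 it was 1 of 17, 6 of 22 and 8 of 27, and for day 9 minus day 1 it was 0 of 9. Where neither fewer arrays nor a stricter threshold accounts for a change below, the cause was not tested. The 16 cycle calls stayed at 16 without any 1 replicate and were 12 without the cytosolic enzymes.

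Among called members, quantile normalization turned Eno2 at day 5 (-0.26), day 9 (-0.24) and the mean (-0.24, adjusted p = 0.0113), and Pck1 at day 9 (0.11) and the mean (0.046). It left 0 members higher at day 1, 0 at day 2, 1 at day 5, 1 at day 9 and 0 for day 9 minus day 1, and moved the median of glycolysis to -0.28 and of gluconeogenesis to -0.21. Without subtraction of medians the glycolysis median was -0.19 and 0 members were higher for day 9 minus day 1; with zeros kept it was -0.19. These scalings moved the median of all genes by -0.128 (no subtraction) and -0.102 (quantile) at day 5, and the first by -0.114 for day 9 minus day 1. Calls over all genes on the mean were 4587 higher and 4409 lower, but 4047 and 5177 without subtraction and 3555 and 4988 after quantile normalization.

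With arrays marked L alone, 0 members were higher and 10 lower at day 1, 0 and 10 at day 2, and 2 became lower for day 9 minus day 1. With the larger image folder alone the counts were 0 and 6 at day 1, 0 and 10 at day 5, and 0 and 0 for day 9 minus day 1; with the folder as a block 0 were higher at day 1. Each day fitted by itself left 0 higher and 2 lower at day 1, 0 higher at day 2 and 1 higher at day 5. With the 2 arrays of sham replicate 3 kept apart 2 were higher at day 1, with array weights 3 were higher at day 2, and with single probes 5 became lower for day 9 minus day 1. An adjusted p under 0.01 left 0 higher at days 1 and 2, 11 lower at day 2, 1 higher at day 5, and 0 and 0 for day 9 minus day 1. At least 1.5-fold left 0 higher at day 2, and on the mean 2 higher, 2 glycolytic members lower and 0 gluconeogenic members higher. Without sham replicate 8 and obstructed replicate 9, which had the most zeros and were chosen after seeing the data, 11 were lower at day 2 and 13 for day 9 minus day 1. Leaving out 1 replicate gave 0 to 2 higher and 10 to 20 lower at day 1, 0 to 2 and 8 to 23 at day 2, 1 to 3 and 17 to 24 at day 5, 1 to 3 and 27 to 31 at day 9, 4 to 5 and 30 to 31 on the mean, and 0 to 2 and 0 to 14 for day 9 minus day 1. The same ranges were 3 to 4 higher and 7 to 7 lower in glycolysis and 1 to 1 and 2 to 3 in gluconeogenesis, with medians of -0.18 to -0.10, -0.72 to -0.60 and, for the cycle, -0.96 to -0.88.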
